A study of Mus musculus with 95 samples.

Results

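The trimethyl mark on lysine 27 of histone H3 (H3K27me3) was described in 7 mouse embryonic stem cell lines, a wild-type line and 6 knockouts of Pcgf genes. The members are the deposited peak lists made with an H3K27me3 antibody, 1 list per line, which are 7 of the series' 95 samples and 7 of its 80 peak lists. The 14 RNA-seq libraries, 2 from each of the 7 genotypes, were set beside them. All cells derive from E14, an established mouse embryonic stem cell line, and were kept on gelatin in GMEM with 15% fetal bovine serum, LIF, a GSK3β inhibitor (CHIR99021) and a MEK1/2 inhibitor (PD0325901), so every group, wild-type included, carried the same inhibitors. The knockouts were Pcgf1-/-, Pcgf2/4-/-, Pcgf3/5-/-, Pcgf6-/-, Pcgf1/2/4-/- and Pcgf3/5/6-/-, where Pcgf4 is the gene also called Bmi1. They were made with Cas9 and isolated as clones, and lines lacking several genes came from repeated editing. The peak names carry a clone number in the H3K27me3 lists of 4 knockouts, each then 1 clone, and none in those of Pcgf6-/- and Pcgf1/2/4-/-, so whether these 2 lists and the RNA come from the same clone is not known. In Pcgf3/5-/- the ubiquitin mark compared below carries another clone number than H3K27me3, and the Pcgf6-/- RNA columns carry another clone number than the authors' own comparison of that line. No list has a replicate, so differences between lists carry no test, and the percent intervals given are 95% Wilson intervals that cover counting error only.

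H3K27me3 is laid down by Polycomb repressive complex 2 (PRC2), whose core holds SUZ12, and marks developmental genes that stem cells keep off. Polycomb repressive complex 1 (PRC1) places a single ubiquitin on histone H2A (the mark H2AK119ub1) through RING1A or RING1B and is built around a single PCGF protein. PCGF2 and PCGF4 form canonical PRC1, which reads H3K27me3 through CBX proteins. PCGF1, PCGF3, PCGF5 and PCGF6 form variant complexes with RYBP or YAF2. Forms of PRC2 with JARID2 and AEBP2 can bind H2AK119ub1, which ties the marks to each other. PCGF1 works with the CpG-binding KDM2B, and PCGF6 with MGA, MAX and E2F6, which recognise E-box and E2F sequences at germ cell genes.

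Sequences from 7 regions show the kinds of places the results turn on, read from the mouse build NCBIM37 (mm9), 5′ to 3′. The first 3 are the 250 bases before the annotated start of germ cell genes whose promoter peak was absent in the Pcgf6-/- list: Ddx4 (chr13:113442519-113442768, minus strand), Mael (chr1:168168876-168169125, minus strand) and Sycp1 (chr3:102740024-102740273, minus strand). None of them overlaps an exon or another gene. Capitals mark CACGTG (an E-box) and TCCCGC or its reverse complement GCGGGA (an E2F-like sequence), and a match is a description of the letters, not a binding site. 
Ddx4: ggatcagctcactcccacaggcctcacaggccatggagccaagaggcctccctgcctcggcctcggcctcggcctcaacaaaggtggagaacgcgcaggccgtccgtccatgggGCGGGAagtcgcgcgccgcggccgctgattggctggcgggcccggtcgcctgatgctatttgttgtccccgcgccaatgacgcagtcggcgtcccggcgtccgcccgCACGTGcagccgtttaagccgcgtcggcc
Mael: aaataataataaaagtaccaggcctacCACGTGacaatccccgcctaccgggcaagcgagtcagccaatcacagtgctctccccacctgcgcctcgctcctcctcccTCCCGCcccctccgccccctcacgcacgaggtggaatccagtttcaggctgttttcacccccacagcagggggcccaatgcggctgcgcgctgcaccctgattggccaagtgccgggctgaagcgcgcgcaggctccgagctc
Sycp1: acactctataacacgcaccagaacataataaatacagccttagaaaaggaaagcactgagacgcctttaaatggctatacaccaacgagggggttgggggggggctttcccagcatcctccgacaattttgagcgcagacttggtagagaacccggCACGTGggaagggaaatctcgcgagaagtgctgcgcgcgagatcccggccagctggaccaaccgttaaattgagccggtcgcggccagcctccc
The other 4 are 200-base windows centred on a peak's summit, on the plus strand, with each CG dinucleotide in capitals. The window in Plk5 (chr10:79820271-79820470, intronic) lies in the wild-type promoter domain of highest fold that was lost in Pcgf1/2/4-/-. The window by Nkx2-1 (chr12:57620781-57620980, intergenic, its domain 13.4 kb from that gene's start) lies in a wild-type domain lost in the same line. The window near Lrrn2 (chr1:134710003-134710202, intergenic) lies in a domain new in Pcgf2/4-/-. The window in Dpysl4 (chr7:146272876-146273075, intronic) lies in a promoter domain that was absent in wild-type and present in all 6 knockout lists.
Plk5: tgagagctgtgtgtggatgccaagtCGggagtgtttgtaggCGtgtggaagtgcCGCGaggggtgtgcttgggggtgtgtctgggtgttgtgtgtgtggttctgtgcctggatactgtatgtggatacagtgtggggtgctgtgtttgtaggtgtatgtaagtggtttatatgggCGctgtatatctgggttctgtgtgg
Nkx2-1: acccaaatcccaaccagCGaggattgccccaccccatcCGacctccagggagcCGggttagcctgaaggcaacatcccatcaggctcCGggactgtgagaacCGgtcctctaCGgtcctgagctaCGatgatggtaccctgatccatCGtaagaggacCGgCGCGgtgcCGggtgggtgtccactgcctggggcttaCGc
Lrrn2: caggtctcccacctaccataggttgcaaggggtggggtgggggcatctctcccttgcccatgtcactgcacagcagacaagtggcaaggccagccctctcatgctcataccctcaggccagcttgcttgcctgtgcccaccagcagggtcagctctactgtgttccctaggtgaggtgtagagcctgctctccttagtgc
Dpysl4: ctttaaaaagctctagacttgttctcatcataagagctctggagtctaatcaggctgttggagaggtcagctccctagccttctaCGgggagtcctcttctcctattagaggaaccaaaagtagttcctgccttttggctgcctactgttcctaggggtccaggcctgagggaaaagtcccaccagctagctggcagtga
The window by Nkx2-1 holds 13 CG dinucleotides, the windows in Plk5 and Dpysl4 hold 5 and 1, and the window near Lrrn2 holds 0.

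The lists differed widely in length, from 3918 peaks in Pcgf1/2/4-/- to 112110 in Pcgf2/4-/-, while all 7 began at a −log10 p of 10.0. The chromatin was spiked with fly chromatin, but no spike-in scaling was seen in the peak lists, so a list's length cannot be read as an amount of the mark. The Pcgf6-/- list has rounded values, another naming of peaks and a lowest fold of 3.20, against 1.59 to 1.87 in the others, and its part in the results was not tested. The 14 RNA libraries held 2147968 to 7848161 counts. The wild-type RNA pair differed by less than sampling noise (chi-square per degree of freedom 0.951), whereas the pairs of Pcgf1-/- (10.8) and Pcgf2/4-/- (21.3) differed most, so both libraries' values are given without an SD. Counts of RNA calls are repeated with the wild-type libraries summed to 1 sample, a choice made after seeing the data. Pcgf1 RNA fell from 66.1 and 61.0 CPM (counts scaled to a common library size) to 4.81 and 3.20 in Pcgf1-/- and to 0.534 and 0.903 in Pcgf1/2/4-/-, and Pcgf6 RNA, at 36.2 and 34.3 CPM in wild-type, was listed at 0 in both Pcgf6-/- libraries, at least 172-fold lower (3 counts over the pair as floor). Pcgf6 RNA stood at 42.0 and 37.2 CPM in Pcgf3/5/6-/-, and Pcgf2, Bmi1 and Pcgf3 RNA did not pass the test in their knockouts. Pcgf5 RNA, at 13.0 and 10.8 CPM in wild-type, fell to 5.48 and 4.60 in Pcgf3/5-/- (log2 −1.22, SE 0.23, adjusted p = 0.00175 by edgeR) and was 16.4 and 13.5 in Pcgf3/5/6-/-, which did not pass. No fall in Pcgf3, Pcgf5 or Pcgf6 RNA was thus called in Pcgf3/5/6-/-, which does not check the protein where an edit leaves the transcript. The peak lists of the PCGF proteins themselves shrank in the matching knockouts, from 736 to 15 peaks for PCGF1, 4472 to 1050 for PCGF2, 223 to 21 for PCGF3 and 1868 to 1042 for PCGF6. The 6 markers of stem cells used as a check, among them Pou5f1 and Nanog, summed to 996 to 2445 CPM in every library.

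Peaks at most 3 kb apart were joined into domains. Wild-type cells had 8063 peaks in 4099 domains, which covered 8.91 Mb or 0.335% of the genome. Pcgf1/2/4-/- had the fewest, 2470 domains over 3.45 Mb. Pcgf2/4-/- had the most, 35477 domains over 145 Mb or 5.46% of the genome. The other lines lay between, with 10083 domains over 26.4 Mb in Pcgf1-/-, 11266 over 23.5 Mb in Pcgf3/5-/-, 6048 over 13.8 Mb in Pcgf6-/- and 6143 over 22.6 Mb in Pcgf3/5/6-/-. Thus 5 of the 6 knockout lists covered more of the genome than wild-type, and the list without PCGF1, PCGF2 and PCGF4 covered less.

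Promoters held most wild-type domains. A domain was called promoter where it came within 2.5 kb of an annotated gene start, genic where it otherwise overlapped a gene, and intergenic elsewhere, classes that take 6.81%, 33.4% and 59.7% of the genome. In wild-type, 69.3% of domains (67.9 to 70.7) were promoter, 14.4% genic and 16.3% intergenic. Pcgf3/5/6-/- kept nearly the same make-up, with 68.0% promoter and 19.1% intergenic. The promoter share was 51.3% in Pcgf6-/- and 50.9% in Pcgf1/2/4-/-, then 44.3% in Pcgf1-/- and 43.1% in Pcgf3/5-/-. It was lowest in Pcgf2/4-/-, where 24.7% (24.2 to 25.1) of domains were promoter and 44.2% intergenic. These shares moved with the length of the list: with each list cut to its 3918 strongest peaks by q value, the promoter share was 74.2% in wild-type, 74.3% to 75.4% in Pcgf1-/-, Pcgf2/4-/- and Pcgf3/5-/-, 63.2% in Pcgf6-/-, 50.9% in Pcgf1/2/4-/- and 83.3% in Pcgf3/5/6-/-. So the strongest peaks of Pcgf2/4-/- were about as often at promoters as those of wild-type. The Pcgf1/2/4-/- list holds only 3918 peaks, so its weakest peaks stayed in and its strongest were not set apart. Its promoter share was higher with the stricter q value given below, though still under that of wild-type.

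**Figure D1:**
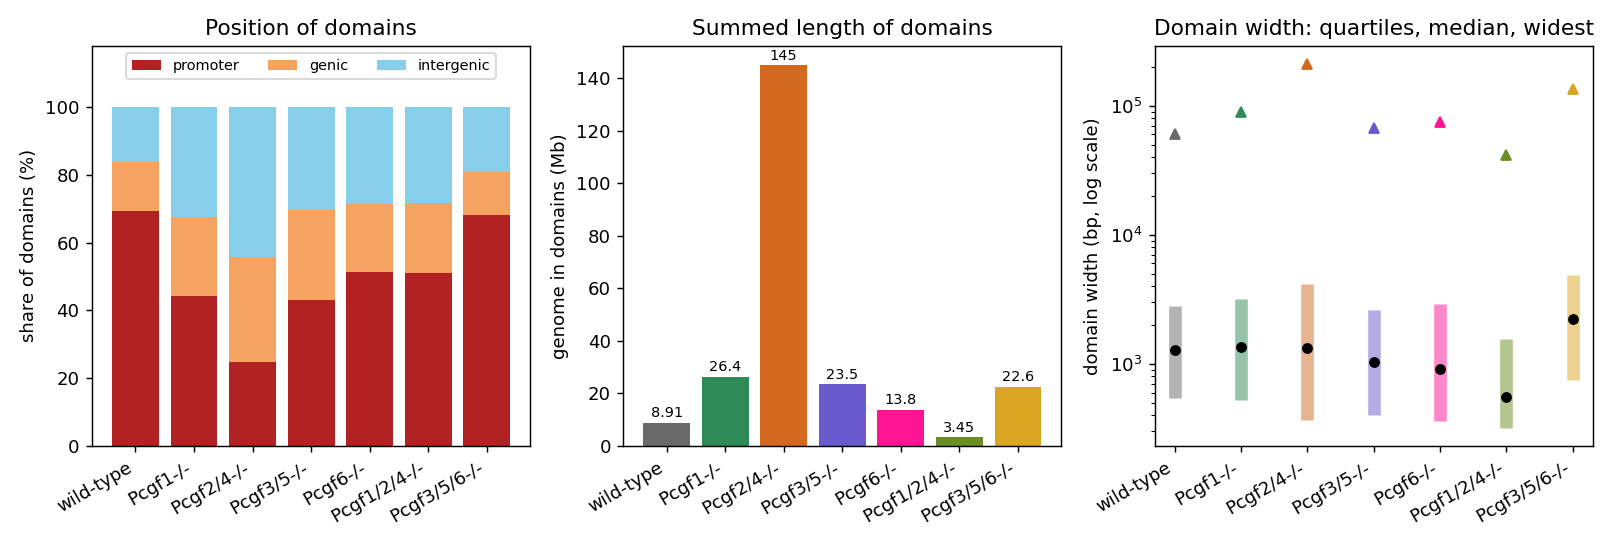
Position, summed length and width of H3K27me3 domains in the 7 lists. Left, share of domains (%) that are promoter, genic or intergenic; middle, genome in domains (Mb); right, domain width in bp on a log scale with quartiles, median and widest domain. Pcgf2/4-/- reaches 145 Mb and the lowest promoter share, 24.7%, and Pcgf1/2/4-/- has 3.45 Mb and the lowest median width, 556 bp.

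Widths separated the triple knockouts. The median domain was 1282 bp wide in wild-type, 556 bp in Pcgf1/2/4-/- and 2216 bp in Pcgf3/5/6-/-. It was 1345 bp in Pcgf1-/-, 1329 bp in Pcgf2/4-/-, 1028 bp in Pcgf3/5-/- and 918 bp in Pcgf6-/-. The medians of the long lists hide their broad domains, since many narrow domains enter them: domains of at least 10 kb numbered 95 in wild-type, 3619 in Pcgf2/4-/-, 419 in Pcgf3/5/6-/-, 412 in Pcgf1-/-, 277 in Pcgf3/5-/-, 218 in Pcgf6-/- and 29 in Pcgf1/2/4-/-. The widest domain of Pcgf2/4-/- spanned 210374 bp at Kif26a, and its next widest, at 186044 bp, lay over Lmx1b. RNA of Kif26a, a kinesin family gene, fell from 3.71 and 2.81 CPM to 0 and 0.383 there. The 3 widest of Pcgf3/5/6-/- lay at Hox genes, with 135548 bp at Hoxc12, 114462 bp at Hoxa5 and 86388 bp at Hoxb8. Among wild-type domains that a knockout list still overlapped, the median ratio of knockout to wild-type width was 7.38 in Pcgf2/4-/-, 2.26 in Pcgf3/5/6-/-, 2.18 in Pcgf1-/-, 1.86 in Pcgf3/5-/-, 1.22 in Pcgf6-/- and 0.488 in Pcgf1/2/4-/-. By this median, domains common to both lists were wider than in wild-type in 5 lines and narrower in Pcgf1/2/4-/-, where 50.6% of them had shrunk to below 0.5 of their wild-type width.

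The widest wild-type domains show this locus by locus. The Hoxd9 domain (60.4 kb, chr2:74492312-74552728, NCBIM37), over genes that pattern the body axis, was covered to between 88.2% and 100% in 5 knockout lists and to 8.82% in Pcgf1/2/4-/-. Lmx1b (25.1 kb, chr2:33478379-33503468), a gene of limb and midbrain development, lay in a domain that reached 89.8 kb in Pcgf1-/- and 186 kb in Pcgf2/4-/- and kept 66.8% of its wild-type bases in Pcgf1/2/4-/-. Cbx8 (24.8 kb, chr11:118896088-118920907), which encodes a chromobox subunit of canonical PRC1, kept 15.2% in Pcgf1/2/4-/- and at least 98.9% in the others. Pax6 (23.3 kb, chr2:105506616-105529888), a regulator of eye and forebrain, kept 52.6% in Pcgf1/2/4-/- and at least 91.0% in the others. Ddn (21.0 kb, chr15:98618633-98639680) kept 26.0% in Pcgf1/2/4-/-, 77.5% to 82.9% in Pcgf3/5-/- and Pcgf1-/- and at least 97.4% elsewhere. Loss of breadth at these 5 loci was thus greatest in Pcgf1/2/4-/- at every one, though the Hoxd9, Cbx8 and Ddn domains lost a larger part than Lmx1b and Pax6.

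A wild-type domain was called kept where a knockout list overlapped it by at least 1 bp and lost otherwise. Lost domains were 9.61% of the 4099 in Pcgf1-/- (394), 1.51% in Pcgf2/4-/- (62), 11.1% in Pcgf3/5-/- (455), 32.1% in Pcgf6-/- (1316), 68.7% in Pcgf1/2/4-/- (2816) and 20.8% in Pcgf3/5/6-/- (851). The share kept was 31.3% (29.9 to 32.7) in Pcgf1/2/4-/-, 67.9% (66.4 to 69.3) in Pcgf6-/- and 79.2% (78.0 to 80.5) in Pcgf3/5/6-/-. It was 88.9% (87.9 to 89.8) in Pcgf3/5-/-, 90.4% (89.4 to 91.3) in Pcgf1-/- and 98.5% (98.1 to 98.8) in Pcgf2/4-/-. Lists of equal size, 3918 peaks each, gave the same lowest line but a narrower range: 40.0% kept in Pcgf1/2/4-/-, 51.4% in Pcgf6-/-, 66.6% in Pcgf3/5/6-/-, 70.7% in Pcgf3/5-/-, 72.5% in Pcgf1-/- and 78.1% in Pcgf2/4-/-. All 6 knockout lists are set against the same wild-type list, so these shares are not independent of each other.

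Strength in wild-type went with retention. Wild-type domains were split into 4 groups of like size by their fold enrichment, which is the authors' own value and is used only within a list. From the weakest to the strongest group, the share kept went from 10.9% to 59.6% in Pcgf1/2/4-/-, from 42.9% to 91.3% in Pcgf6-/- and from 61.0% to 96.0% in Pcgf3/5/6-/-. In Pcgf3/5-/- it went from 76.3% to 98.6%, in Pcgf1-/- from 79.8% to 98.0% and in Pcgf2/4-/- from 96.4% to 100%. Width went the same way: of the 95 domains of at least 10 kb, 85 were kept in Pcgf1/2/4-/-, 92 in Pcgf3/5/6-/- and all in the other 4 lines. Of the 1742 under 1 kb only 9.87% were kept in Pcgf1/2/4-/- and 42.2% in Pcgf6-/-. A wide domain meets the rule of 1 bp overlap more easily, so part of this trend is built into the rule. The stronger groups were also wider, with a median of 495 bp in the weakest and 2955 bp in the strongest. A kept domain need not stay whole: in Pcgf1/2/4-/- only 23.4% of all wild-type domain bases were covered. Promoter domains were kept more often than intergenic ones in 5 lines, at 994 of 2841 against 157 of 668 in Pcgf1/2/4-/- and at 86.8% against 61.1% in Pcgf3/5/6-/-, and about equally in Pcgf2/4-/-, at 98.4% against 98.5%.

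**Figure D2:**
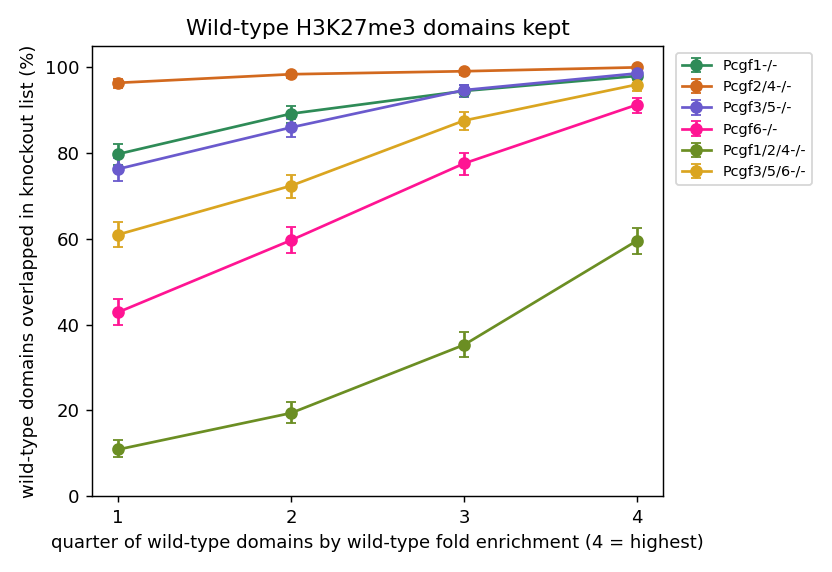
Wild-type H3K27me3 domains overlapped in each knockout list (%), by group of wild-type fold enrichment, from 1, the weakest, to 4, the strongest. Points are shares and bars 95% Wilson intervals; Pcgf1/2/4-/- rises from 10.9% to 59.6% and lies below the other lines in every group.

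Because the 6 comparisons share the single wild-type list, what recurs among them is given as a description only. In all, 1062 wild-type domains (25.9%) were overlapped in all 6 knockout lists. They had a median width of 3291 bp, 82.1% were promoter, and 93.3% overlapped a wild-type SUZ12 peak, against 71.0% of all wild-type domains. Only 5 wild-type domains were overlapped in none of the 6 lists. Of these, 4 lay within 2.5 kb of a start of Sestd1, Rpl36-ps3, Fgf10 (a growth factor of limb and lung buds) and Arhgap24, and the other lay between genes near Vrk1. Fgf10 still had a peak elsewhere near a start in Pcgf1-/-, Pcgf2/4-/-, Pcgf3/5-/- and Pcgf3/5/6-/-, so such a domain does not stand for the whole promoter state of the gene. At the other end, 102 domains were absent in wild-type and met in all 6 knockout lists, 52 of them promoter, 29 genic and 21 intergenic. The 5 such promoters with the highest fold in the shortest list, that of Pcgf1/2/4-/-, were those of Sorcs3, Fam19a5, Nrxn2, Hpca and Sel1l3, the first 4 of which are known for roles in neurons.

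New domains, those of a knockout list with no wild-type overlap, numbered 32046 in Pcgf2/4-/- (90.3% of its domains), 7775 in Pcgf3/5-/- (69.0%), 6582 in Pcgf1-/- (65.3%), 3329 in Pcgf6-/- (55.0%), 3132 in Pcgf3/5/6-/- (51.0%) and 1143 in Pcgf1/2/4-/- (46.3%). The order of these shares followed list length, except that Pcgf6-/- stood above Pcgf3/5/6-/-, and turned over in lists of equal size, where 58.5% of the domains were new in Pcgf1/2/4-/-, 48.8% in Pcgf6-/- and 37.6% to 41.2% in the other 4 lines. New domains were narrow by the median (358 to 992 bp) and mostly away from promoters, with 47.6% intergenic in Pcgf2/4-/-, 45.0% in Pcgf1/2/4-/-, 42.3% in Pcgf1-/-, 40.6% in Pcgf6-/- and 38.3% in Pcgf3/5-/-. Pcgf3/5/6-/- was the exception, with 56.5% (54.8 to 58.2) of its new domains promoter and 27.2% intergenic. Pcgf2/4-/- also had 2029 new domains of at least 10 kb, against 3 to 32 in the other 5 lines.

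New domains lay closer to wild-type domains than a base of the genome does, since 19.4% of the genome is within 100 kb of a wild-type domain. The share within 100 kb was 68.1% in Pcgf6-/-, 67.5% in Pcgf1/2/4-/-, 56.2% in Pcgf1-/-, 51.9% in Pcgf3/5-/-, 50.9% in Pcgf3/5/6-/- and 45.1% in Pcgf2/4-/-. Their sequence was poorer in CpG. In the 1000 bases around a domain's summit the median was 35 CpG in wild-type domains, and in new domains it was 23 in Pcgf3/5-/-, 19 in Pcgf1-/- and Pcgf3/5/6-/-, 16 in Pcgf2/4-/- and 14 in Pcgf6-/- and Pcgf1/2/4-/-. Lost domains differed from each other on this measure, with medians of 33 in Pcgf1/2/4-/- and 31 in Pcgf6-/-, close to wild-type domains at large, and 27 in Pcgf1-/-, 24 in Pcgf3/5/6-/-, 18 in Pcgf3/5-/- and 13 in Pcgf2/4-/-. By this median, losses in Pcgf1/2/4-/- and Pcgf6-/- lay in places about as CpG-rich as wild-type domains at large. The few losses in Pcgf2/4-/- lay in CpG-poor ones.

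Polycomb proteins mapped in the same lines give a second view of these sets. In wild-type cells 71.0% of H3K27me3 domains overlapped a SUZ12 peak, 64.0% RING1B, 47.3% PCGF2, 11.7% PCGF1, 9.15% PCGF6 and 0.390% PCGF3, from lists of unequal length. Domains lost in Pcgf1/2/4-/- had wild-type SUZ12 in 64.1% of cases and wild-type PCGF2 in 36.9%, against 86.2% and 70.0% of the kept. Domains lost in Pcgf6-/- had wild-type SUZ12 in 51.2% of cases, against 80.4% of the kept, but wild-type PCGF6 about as often as the kept, 9.73% (128 of 1316) against 8.88% (247 of 2783). Losses in Pcgf2/4-/- (12.9%), Pcgf3/5-/- (19.3%), Pcgf3/5/6-/- (29.5%) and Pcgf1-/- (34.5%) were mostly at domains without a wild-type SUZ12 peak. A lost H3K27me3 peak did not always mean a lost SUZ12 peak: SUZ12 in the same line overlapped 49.6% of the domains lost in Pcgf1/2/4-/- and 40.4% of those lost in Pcgf6-/-, but 5.17% of those lost in Pcgf3/5/6-/-.

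RING1B and its mark were read in the same way. RING1B peaks overlapped 64.0% of wild-type H3K27me3 domains in wild-type, 17.7% in Pcgf1/2/4-/- and 38.0% in Pcgf3/5/6-/-, with 54.4% to 61.3% in the other 4 lines. H2AK119ub1 peaks of the same line overlapped 76.5% of new H3K27me3 domains in Pcgf3/5-/-, 68.2% in Pcgf2/4-/- and 46.4% in Pcgf3/5/6-/-, and 15% to 19% in the other 3, where the H2AK119ub1 lists ranged from 1741 peaks in wild-type to 128786 in Pcgf3/5-/-. SUZ12 of the same line overlapped 22.0% of new domains in Pcgf3/5/6-/-, 16.9% in Pcgf6-/-, 13.5% in Pcgf3/5-/-, 12.7% in Pcgf1-/-, 9.97% in Pcgf1/2/4-/- and 6.63% in Pcgf2/4-/-. Over all H3K27me3 domains of the same line, kept ones included, H2AK119ub1 overlapped 83.6% in Pcgf3/5-/- and 71.1% in Pcgf2/4-/-, and it overlapped 76.5% of the wild-type domains lost in Pcgf3/5-/-, so the ubiquitin mark did not set new domains apart there. A pair of lists with different clone numbers exists in Pcgf1/2/4-/- for RING1B and for H2AK119ub1, and gives the only view of list-to-list spread: 67.7% and 74.8% of the RING1B domains of each list were met in the other, and 37.4% and 75.1% of the H2AK119ub1 domains.

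The triple knockouts can be set beside the lines edited in some of the same genes. Of the 2470 Pcgf1/2/4-/- domains, 92.6% were met in Pcgf2/4-/- and 79.6% in Pcgf1-/-, and of those lists' domains 5.30% and 17.6% were met in the triple. Of the 6143 Pcgf3/5/6-/- domains, 69.1% were met in Pcgf3/5-/- and 49.9% in Pcgf6-/-, and of those lists' domains 39.1% and 54.9% were met in the triple. The Pcgf1-/- and Pcgf2/4-/- lists were longer than that of wild-type and the Pcgf1/2/4-/- list was shorter.

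The 4 Hox clusters, whose genes set position along the body axis, showed the sharpest contrast. In wild-type, H3K27me3 domains covered 43.5% of HoxA (chr6:52102866-52213374), 21.3% of HoxB (chr11:96130271-96232070), 44.4% of HoxC (chr15:102749034-102869774) and 70.5% of HoxD (chr2:74503867-74605700). In Pcgf1/2/4-/- the coverage was 1.93%, 7.44%, 0.446% and 8.07% in the same order. In Pcgf3/5/6-/- it was 91.3%, 90.7%, 98.5% and 92.8%, the highest of the 7 lists in HoxA and HoxC. The other 4 lists covered 67.9% to 75.3% of HoxA, 49.0% to 90.9% of HoxB, 51.8% to 60.2% of HoxC and 71.9% to 93.7% of HoxD. Coverage was therefore lower than wild-type in Pcgf1/2/4-/- and higher in the other 5 lists in each of the 4 clusters.

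Counted by gene, 34 of 39 Hox promoters had a wild-type peak within 2.5 kb of a start, and 9 had one in Pcgf1/2/4-/-, where 25 were lost. The count was 35 to 38 in the other 5 knockout lists. Over all genes, 61.9% of the 3078 wild-type promoter peaks were lost in Pcgf1/2/4-/-. The 25 lost Hox peaks became 28 with a stricter q value and 22 in lists of equal size. In lists of equal size wild-type had 30 Hox promoters with a peak. Pcgf2/4-/- then had 28 (5 lost), Pcgf6-/- 29 (2 lost), and Pcgf1-/-, Pcgf3/5-/- and Pcgf3/5/6-/- 33, 34 and 38. The Pcgf1/2/4-/- list still had peaks at Hoxa2, Hoxd1, Hoxd3, Hoxd11 and the Hoxb3 to Hoxb8 stretch other than Hoxb4.

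Hox RNA was tested for 18 of the 39 genes, those that passed the filter on low counts, so a gene silent in wild-type was tested only where some group raised it. All RNA calls here are at an adjusted p below 0.05 (Benjamini-Hochberg) in the quasi-likelihood test of edgeR. The share of all 15464 tested genes that rose was 13.9%, 8.10%, 11.1%, 27.8%, 14.4% and 28.0% in Pcgf1-/-, Pcgf2/4-/-, Pcgf3/5-/-, Pcgf6-/-, Pcgf1/2/4-/- and Pcgf3/5/6-/-, and the share that fell was 18.4%, 13.5%, 10.4%, 18.6%, 22.6% and 25.3% in the same order. With the wild-type libraries summed, these became 9.55%, 5.05%, 7.67%, 24.4%, 8.00% and 25% raised and 12.6%, 9.19%, 5.96%, 14.2%, 16.3% and 21.0% lowered. Against that background, 11 of the 18 Hox genes rose in Pcgf1/2/4-/- (12 of 21 with wild-type summed). Of the 12 tested Hox genes whose peak was lost, 8 rose. Hoxa10, a gene of posterior identity, had 3.71 and 4.22 CPM in wild-type and 43.2 and 47.4 in Pcgf1/2/4-/- (log2 3.51, SE 0.25, adjusted p = 6.76e-07). Hoxa9 went from 1.57 and 0.985 to 17.1 and 17.2 CPM (log2 3.72, SE 0.47, adjusted p = 5.31e-05). Hoxd9 went from 0.428 and 0.141 to 10.1 and 8.58 CPM (log2 4.93, SE 0.50, adjusted p = 2.15e-05). In each of these the groups did not overlap. Hoxd13, the most posterior of its cluster, was listed at 0 in wild-type and at 5.87 and 5.42 CPM in Pcgf1/2/4-/-, at least 26.6-fold higher. Hoxa3, also without its peak, had 1.28 and 0.844 CPM in wild-type and 0.534 and 0.452, which did not pass the test.

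A Hox promoter peak did not go with one direction of RNA. In Pcgf1-/- and Pcgf2/4-/- 11 and 10 of the 18 genes rose (8 and 10 of 21 with wild-type summed), beside 13.9% and 8.10% of all genes. These lines each lost 1 Hox promoter peak with all peaks used, and 1 and 5 in lists of equal size. In Pcgf6-/- 7 of the 18 fell (7 of 21), beside 18.6% of all genes, and in Pcgf3/5/6-/- 8 fell (7 of 21), beside 25.3%. Hoxa10 had 0 and 0.676 CPM in Pcgf3/5/6-/- (log2 −3.51, SE 0.68, adjusted p = 5.70e-04), below both wild-type libraries. The median log2 change of the 18 genes was 1.66 in Pcgf1/2/4-/-, 1.17 in Pcgf2/4-/-, 0.97 in Pcgf1-/-, 0.02 in Pcgf3/5-/-, −0.71 in Pcgf6-/- and −1.44 in Pcgf3/5/6-/-, with genes at 0 in a group held at the fold that 3 counts allow. Over all 15464 genes it lay between −0.07 and 0.05, counted the same way.

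**Figure D3:**
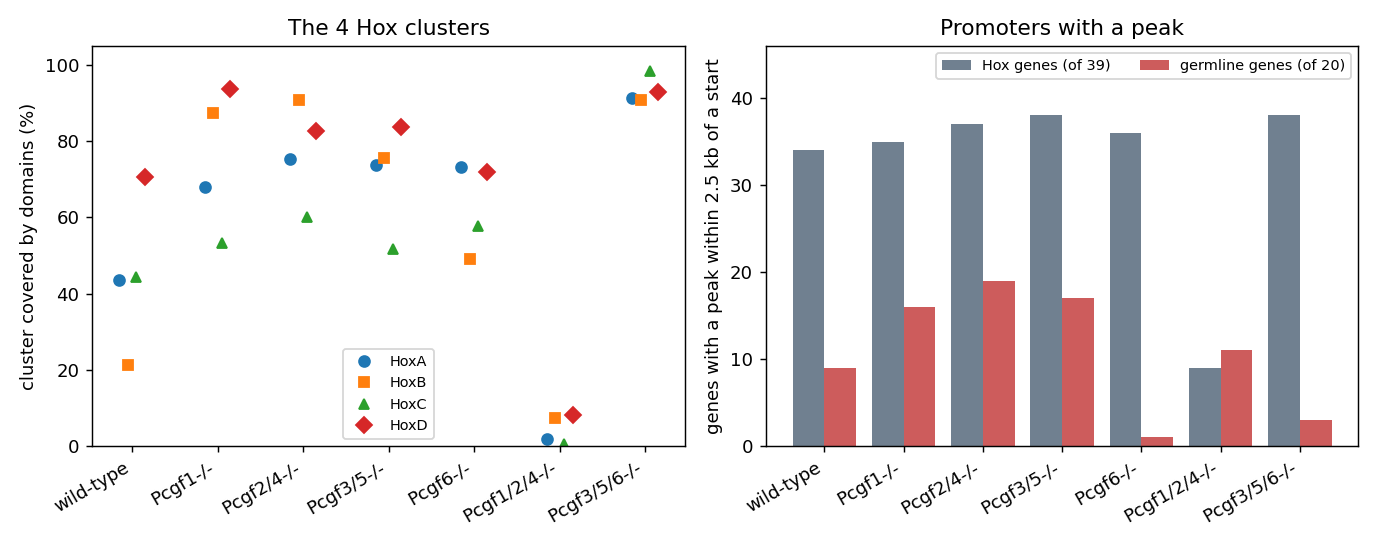
Left, share (%) of the 4 Hox clusters covered by H3K27me3 domains in each list; right, number of 39 Hox and 20 germ cell genes with a peak within 2.5 kb of a start. Hox coverage is at or below 8.07% in Pcgf1/2/4-/-, and germ cell promoters with a peak fall to 1 in Pcgf6-/- and 3 in Pcgf3/5/6-/-.

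Germ cell and meiosis genes lost most of their peaks in other lines than the Hox genes did. The list of 20 was drawn up with results of these data known, so its direction is not independent evidence. A promoter peak stood at 9 of the 20 in wild-type, 16 in Pcgf1-/-, 19 in Pcgf2/4-/-, 17 in Pcgf3/5-/-, 11 in Pcgf1/2/4-/-, 3 in Pcgf3/5/6-/- and 1 in Pcgf6-/-. Peaks were lost at Ddx4, Mael, Tdrkh, Smc1b, Sycp1, Zcwpw1, Hormad1 and Tdrd1 in Pcgf6-/-, and at the same genes other than Smc1b and Tdrd1 in Pcgf3/5/6-/-. Of all 3078 wild-type promoter peaks, 22.0% and 9.71% were lost in these lines. Mei1 alone kept its peak in all lists with all peaks used. With the stricter q value none of the 20 had a peak in Pcgf6-/-. In lists of equal size 4 of the 20 had one in wild-type. None did in Pcgf6-/- or Pcgf3/5/6-/-, so both lines lost all 4. Pcgf6-/- and Pcgf3/5/6-/- thus had fewer H3K27me3 peaks at these genes than wild-type, and the other 4 knockouts had more, except that with the stricter q value Pcgf1/2/4-/- had 5 against 9 in wild-type.

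The wild-type PCGF6 list had a peak at 18 of the 20 promoters (90.0%), against 5.76% of all 23640 genes. The letters CACGTG, read on both strands in the 250 bases before to 50 after the start, were in 11 of the 20 (55.0%) against 7.80% of all promoter windows of that length, and TCCCGC or GCGGGA in 9 (45.0%) against 24.4%. Among all promoters, those that lost their peak in Pcgf6-/- held CACGTG in 10.2% of cases (8.12 to 12.7) and those that kept it in 7.83% (6.82 to 8.98). The sequence that marks the Ddx4, Mael and Sycp1 windows above was thus frequent in the germ cell list, while among the 678 lost promoters at large its share had an interval that overlaps that of the kept ones.

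RNA of the germ cell genes rose in both lines. In Pcgf6-/- 19 of 20 rose, beside 27.8% of all genes tested, with a median log2 change of 3.44, and in Pcgf3/5/6-/- 18 rose, beside 28.0% of all, with a median of 3.13; both counts were the same with wild-type summed. Ddx4, an RNA helicase of germ cells, had 16.1 and 15.2 CPM in wild-type, 224 and 250 in Pcgf6-/- and 241 and 216 in Pcgf3/5/6-/-. Sycp1, a protein of the synaptonemal complex that joins meiotic chromosomes, had 2.28 and 2.11 CPM in wild-type, 76.8 and 78.0 in Pcgf6-/- and 19.3 and 15.9 in Pcgf3/5/6-/-. Mael, which acts in transposon silencing in germ cells, went from 20.1 and 23.9 CPM to 194 and 220 and to 237 and 244. All 3 passed the test in both lines, with no overlap between groups. All 8 genes whose peak was lost rose in Pcgf6-/-, and 5 of 6 did in Pcgf3/5/6-/-, where Hormad1 had 63.8 and 64.9 CPM against 70.5 and 73.1.

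Genes without a wild-type peak rose too. Slc25a31, a mitochondrial ADP/ATP carrier of the testis, had no peak in wild-type or in either line and went from 3.85 and 4.78 CPM to 180 and 196 in Pcgf6-/- (log2 5.44, SE 0.18, adjusted p = 1.14e-10). Stra8, a gate to meiosis, likewise had none and went from 5.28 and 6.47 CPM to 125 and 134. Mei1 kept its peak in both lines with all peaks used, but had none in either in lists of equal size. It also had none in Pcgf6-/- with the stricter q value. Mei1 RNA went from 1.85 and 2.39 CPM to 36.6 and 28.7 in Pcgf3/5/6-/- (log2 3.93, SE 0.28, adjusted p = 1.61e-06 by edgeR). Stag3, a meiotic cohesin, fell in both lines, from 87.3 and 83.3 CPM to 67.6 and 57.3 in Pcgf6-/- and 30.6 and 29.7 in Pcgf3/5/6-/-. In the other 4 lines 2 to 9 genes of the list rose and 4 to 7 fell, beside 8.10% to 14.4% of all genes raised and 10.4% to 22.6% lowered, and its median was between −0.37 and 0.30.

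Developmental regulators outside the Hox clusters were also read by promoter peak. Of 39 annotated neural transcription factors, 36 had a promoter peak in wild-type, 27 in Pcgf1/2/4-/- and 37 to 39 in the others. Among the 9 lost were Olig3, Neurog3, Neurod1, Neurod2, Otx1 and En2, while Pax6 and Lhx5 kept a peak. Mesendoderm factors went from 23 of 30 to 15 in Pcgf1/2/4-/-, with 9 lost and 1 new. Developmental ligands and antagonists went from 25 of 33 to 17, with 8 lost. Over all genes, 61.9% of the 3078 wild-type promoter peaks were lost in that line, a larger part than in any of these 3 lists with all peaks used. With the stricter q value the 3 lists went from 36 to 24, 22 to 6 and 23 to 12 in Pcgf1/2/4-/-, so that most mesendoderm peaks were kept in the full lists and most were lost in the stricter ones. In lists of equal size they went from 34 to 27, 18 to 15 and 20 to 17 in Pcgf1/2/4-/-. In Pcgf6-/- they then had 25, 15 and 21, so fewer neural and mesendoderm peaks than wild-type were not particular to Pcgf1/2/4-/-. In Pcgf3/5/6-/- the same 3 lists had 39, 27 and 29 with all peaks used. Among the mesendoderm genes that lost their peak in Pcgf1/2/4-/-, Gata3, a factor of trophoblast and other lineages, went from 12.7 and 13.8 CPM to 45.9 and 53.7 (log2 1.91, SE 0.18, adjusted p = 5.92e-06), and Cdx2 fell from 71.1 and 77.8 to 33.1 and 37.5. Over each list, 9 of 18 tested mesendoderm genes rose and 4 fell, 3 of 17 neural genes rose and 2 fell, and 4 of 21 signalling genes rose and 3 fell in Pcgf1/2/4-/-, beside 14.4% of all genes raised and 22.6% lowered. In Pcgf3/5/6-/-, where the list had 29 peaks, 14 of the 21 signalling genes rose, beside 28.0% of all genes.

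Inhibitors of cyclin-dependent kinases had 1 promoter peak in wild-type, at Cdkn1c, an imprinted growth inhibitor, and 5 in Pcgf3/5/6-/-, the new ones at Cdkn1a, Cdkn1b, Cdkn2a and Cdkn2c. Of all genes, 13.0% had a promoter peak in wild-type and 19.9% in Pcgf3/5/6-/-. Cdkn1c kept its peak in all 7 lists, and its RNA was 2.43 and 2.67 CPM in wild-type and 130 and 123 in Pcgf3/5/6-/-, with no overlap. Over the 7 genes, all tested, 3 rose and 3 fell in Pcgf3/5/6-/-, beside 28.0% of all genes raised and 25.3% lowered.

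Over all genes, a promoter peak was present at 3078 of 23640 genes (13.0%) in wild-type. It was present at 8506 in Pcgf2/4-/-, 5004 in Pcgf3/5-/-, 4707 in Pcgf3/5/6-/-, 4656 in Pcgf1-/-, 3258 in Pcgf6-/- and 1331 in Pcgf1/2/4-/-. Of the 3078, 61.9% were lost in Pcgf1/2/4-/- (1905), 22.0% in Pcgf6-/- (678), 9.71% in Pcgf3/5/6-/- (299), 6.08% in Pcgf1-/- (187), 3.67% in Pcgf3/5-/- (113) and 0.227% in Pcgf2/4-/- (7). Of the 20562 genes without a wild-type peak, 26.4% gained one in Pcgf2/4-/-, 9.92% in Pcgf3/5-/-, 9.38% in Pcgf3/5/6-/-, 8.58% in Pcgf1-/-, 4.17% in Pcgf6-/- and 0.768% in Pcgf1/2/4-/-. A gene counts as lost only if no peak is left near any of its starts. Genes were matched to RNA by symbol, and only those past the filter on low counts enter the counts that follow, which are therefore descriptions.

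The share of tested genes with a lost promoter peak whose RNA rose was highest in Pcgf3/5/6-/- (78.5%) and Pcgf6-/- (58.8%), beside 28.0% and 27.8% of all genes. In Pcgf3/5/6-/- 179 of 228 tested genes rose and 7 fell (171 and 5 with wild-type summed), with a median log2 change of 1.88 against 0.05 over all genes, where here and below genes at 0 in a group are held at the fold that 3 counts allow. In Pcgf6-/- 258 of 439 rose and 47 fell (238 and 34), with a median of 1.05 against 0.02. Genes that kept their peak rose often in these lines too, at 955 of 1634 in Pcgf3/5/6-/- and 585 of 1423 in Pcgf6-/-, with medians of 1.27 and 0.56, so raised RNA was not confined to promoters that had lost the mark.

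In Pcgf1/2/4-/-, which lost the most promoters, 213 of 1240 tested genes rose and 153 fell (167 and 117 with wild-type summed), with a median of 0.09 against −0.07 over all genes. The share that rose, 17.2%, stood beside 14.4% of all genes, and the share that fell, 12.3%, beside 22.6%. Genes that kept their peak rose at 67 of 622 and fell at 80. The lost-promoter genes had a median wild-type level of 3.54 CPM, against 28.2 over all tested genes. The part of this lower level in the counts of calls was not tested. Leaving out knockout replicate 1 or 2 took the 366 calls to 199 or 189. In Pcgf1-/- 50 of 146 rose and 19 fell (38 and 14), beside 13.9% and 18.4% of all genes, and in Pcgf3/5-/- 22 of 83 rose and 6 fell (18 and 5), beside 11.1% and 10.4%. The 69 calls in Pcgf1-/- became 42 and 40 without wild-type replicate 1 and 2 and 40 without knockout replicate 1, and the 28 in Pcgf3/5-/- became 17, 14 and 17 without the same libraries. In Pcgf2/4-/- 3 of the 7 genes were tested (Acss2, Fndc3a and Smap1) and 0 were called by edgeR or DESeq2, with 1 at an unadjusted p under 0.05.

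RNA of genes with a new promoter peak moved in both directions. In Pcgf2/4-/- 345 of 3469 rose and 707 fell (223 and 532 with wild-type summed), beside 8.10% and 13.5% of all genes, and genes that kept their wild-type peak fell at 443 of 1859 and rose at 151. Without wild-type replicate 1 or 2 the 1052 calls became 597 and 626. In Pcgf3/5/6-/- 395 of 1359 rose and 396 fell (341 and 359), 29.1% each, beside 28.0% and 25.3% of all genes. In Pcgf1-/- 200 of 1096 rose and 264 fell (159 and 228), beside 13.9% and 18.4%, with 464 calls becoming 305 without wild-type replicate 1 and 290 without knockout replicate 1. In Pcgf3/5-/- 211 of 1304 rose and 180 fell (157 and 128), beside 11.1% and 10.4%, with 391 calls becoming 228, 215 and 216 without wild-type replicate 1, wild-type replicate 2 and knockout replicate 1. In Pcgf6-/- 184 of 591 rose and 148 fell (155 and 126), beside 27.8% and 18.6%. In Pcgf1/2/4-/- 9 of 102 rose and 25 fell (9 and 19), beside 14.4% and 22.6%, with 34 calls becoming 22, 18 and 14 without wild-type replicate 2 and knockout replicates 1 and 2. Genes with a new peak fell more often than they rose in Pcgf2/4-/-, Pcgf1-/- and Pcgf1/2/4-/-, as did all tested genes in these 3 lines. The direction turned in Pcgf1-/- without knockout replicate 2 (208 raised and 173 lowered) and with only the 2 groups fitted (174 and 166), and in Pcgf2/4-/- the split was 509 and 536 without knockout replicate 1.

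**Figure D4:**
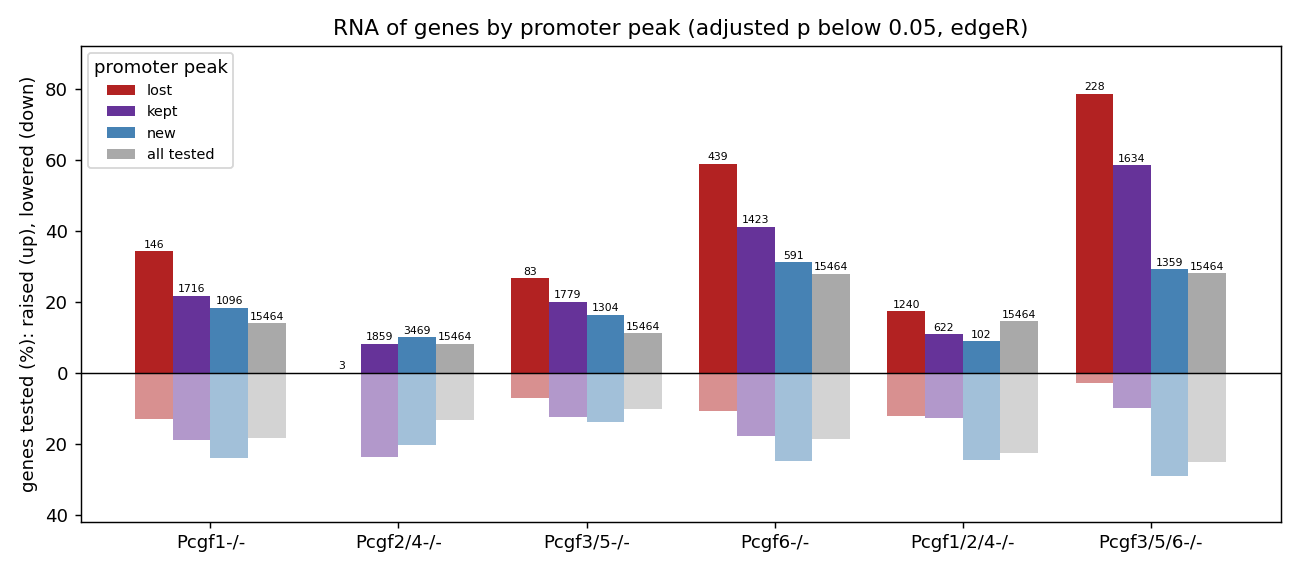
Share of tested genes (%) with RNA raised (up) or lowered (down) at an adjusted p below 0.05 by edgeR, by state of the promoter peak, with the number tested above each bar. Lost promoters in Pcgf3/5/6-/- rose at 179 of 228 and in Pcgf6-/- at 258 of 439, beside 28.0% and 27.8% of all genes.

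Single genes were taken by the rules given under processing. In Pcgf1/2/4-/- the lost promoter with the highest wild-type fold was that of Plk5, a polo-like kinase relative (chr10:79818022-79821092, 3071 bp, fold 12.0), and Plk5 RNA rose from 2.85 and 2.39 CPM to 31.0 and 31.6 (log2 3.57, SE 0.40, adjusted p = 2.14e-05). Col4a2, a collagen of basement membranes, rose from 1.71 and 1.69 to 23.5 and 19.9. Spink2, whose promoter domain (chr5:77640421-77641224, fold 9.82) was lost in both triple knockouts, had 3.42 and 3.52 CPM in wild-type, 1.60 and 2.26 in Pcgf1/2/4-/-, which did not pass the test, and 11.4 and 9.80 in Pcgf3/5/6-/-, which did. The lost intergenic domains of highest fold lay 3.37 kb from Neurod2, a neuronal factor (chr11:98194328-98202137), 45.4 kb from Cdk1, the kinase of mitotic entry (chr10:68861127-68863394), and 13.4 kb from Nkx2-1, a factor of lung, thyroid and forebrain (chr12:57620463-57624499). Cdk1 RNA was 221 and 227 CPM in wild-type and 469 and 425 there (adjusted p = 0.0119, and 0.0613 with wild-type summed). Among new promoters, Ccnd1, the gene of cyclin D1, fell from 234 and 243 to 27.2 and 24.8 CPM (log2 −3.20, SE 0.15, adjusted p = 3.24e-08), and Tspan18 from 12.1 and 12.0 to 0 and 0.452. New promoter domains of highest fold stood at Sox13, Sv2a and Pla2g12a, whose RNA did not pass the test, and of the 3 strongest intergenic gains 2 lay near Fam53a (48.6 and 17.5 kb away), which fell from 140 and 151 to 96.1 and 93.0 CPM.

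In Pcgf6-/- the strongest lost promoters were those of Aspdh, Lrrn1 and Prkch (fold 8.99, 8.65 and 8.16), and Prkch, which encodes a protein kinase C, rose from 3.71 and 2.39 to 52.4 and 51.3 CPM. The largest RNA changes among lost promoters were at Timp3, an inhibitor of metalloproteinases, which rose from 0.856 and 0.844 to 31.8 and 30.0 CPM, at Sycp1 and at Tdrkh, a Tudor protein of the piRNA pathway, which rose from 7.13 and 3.23 to 137 and 148. Lost intergenic domains lay near Il17ra (28.3 kb), Rasgef1b (31.7 kb) and Sox4 (4.90 kb), and RNA of all 3 rose, for Sox4 from 0.571 and 0.985 to 3.73 and 4.44 CPM. The strongest new promoters included Camk2n1, an inhibitor of a calcium-dependent kinase, which fell from 1.43 and 2.25 to 0.124 and 0.153 CPM. Among other new promoters Casq2, a calcium-binding protein of muscle, fell from 29.0 and 30.1 to 0.747 and 0.766 CPM, while Slc5a4b rose from 1.28 and 2.81 to 53.2 and 48.0 and Wdr95 from 2.57 and 1.55 to 35.5 and 32.2. Timp3, Sycp1 and Tdrkh were picked for a large called RNA change, so they do not show how lost promoters behave at large. Of the strongest lost promoters only Prkch was tested, and over all lost promoters 258 of 439 tested genes rose and 47 fell. Gains named here went with both directions.

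In Pcgf3/5/6-/- Krt19, a keratin of simple epithelia, lost its promoter peak and rose from 4.57 and 3.52 to 275 and 290 CPM (log2 6.12, SE 0.20, adjusted p = 7.38e-11). Timp3 and Tdrkh lost theirs as in Pcgf6-/- and reached 29.4 and 29.7, and 130 and 136 CPM. Nrk, an X-linked kinase of the placenta, gained a peak of fold 4.61 and rose from 0.856 and 0.844 to 147 and 146 CPM. Glb1l also gained one and fell from 29.2 and 26.2 to 0.316 and 1.69, and Cdx1 fell from 52.8 and 59.4 to 2.53 and 2.03. The strongest new promoters were Ghsr, Nkx1-2 and Dpysl4 (fold 14.8, 14.2 and 13.4), and Dpysl4 RNA, 4.28 and 5.06 CPM in wild-type, was 42.0 and 30.1 despite the gain. Libraries of this line also had the highest summed level of 6 trophoblast markers, 246 and 241 CPM against 104 and 108 in wild-type, and of the 4 tested of 6 primitive endoderm markers, 54.7 and 62.5 against 3.57 and 3.09, with 52.2 and 46.1 in Pcgf6-/- and 14.4 and 13.1 in Pcgf1/2/4-/-. The 4 tested of 6 fibroblast markers summed to 37.0 and 34.8 in Pcgf3/5/6-/- and at most 30.1 in the other knockouts, against 15.0 and 10.8 in wild-type. The sums hide members that went the other way. In Pcgf3/5/6-/- 4 of the 6 trophoblast markers rose and 2 fell, and 3 of the 4 tested fibroblast markers rose and 1 fell. Of the 4 tested endoderm markers 3 rose and 0 fell, beside 28.0% of all genes raised and 25.3% lowered. Stem cell markers stood at 1695 and 1730 CPM in Pcgf3/5/6-/- and 1196 and 1206 in wild-type. The part of such cells in the raised RNA was not tested, and in bulk RNA a rarer cell type and less RNA per cell cannot be told apart.

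The rules named some genes in both Pcgf1-/- and Pcgf3/5-/-, which are compared with the same wild-type libraries. Limch1, an actin regulator, gained a promoter peak in both and fell from 18.8 and 19.7 CPM to 0.656 and 0.229 in Pcgf1-/- and 0.936 and 1.15 in Pcgf3/5-/-. Tsc22d3, a glucocorticoid-induced leucine zipper gene, gained one in both and rose from 2.00 and 2.53 to 72.2 and 73.6 in Pcgf1-/- and 44.0 and 45.2 in Pcgf3/5-/-. Both lines had an intergenic gain at the same place 11.6 kb from Cnnm1. Pcgf3/5-/- also gained promoter peaks at Dazl, a germ cell RNA-binding protein whose RNA did not pass the test, and at Alppl2, an alkaline phosphatase, whose RNA fell from 5.14 and 4.92 to 0.267 and 0.192 CPM. In Pcgf1-/- the strongest lost promoters were Cdc42ep1, which fell from 11.3 and 12.0 to 7.11 and 5.49 CPM, Tlx2, which did not pass the test, and Igsf21, which rose from 8.56 and 5.49 to 20.9 and 14.4. The largest RNA changes among lost promoters were at Tec, which rose from 4.57 and 2.95 to 23.5 and 17.1, at Msx2, a homeobox gene, which rose from 9.42 and 11.2 to 50.3 and 46.6, and at Shisa7, which fell from 9.70 and 9.56 to 3.39 and 1.37 CPM. In Pcgf3/5-/- the strongest lost promoters included Dpf1, which did not pass the test, and the adhesion receptor gene Gpr98 lost its peak and reached 35.8 and 38.9 CPM (log2 1.91, SE 0.19, adjusted p = 9.72e-06). A lost intergenic domain lay 4.38 kb from Tmem125, which rose from 3.00 and 5.06 to 28.1 and 21.7 CPM.

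In Pcgf2/4-/- gains dominated. Its strongest new promoters were Dbx2, a homeobox gene of the neural tube, Esrp1, a splicing factor of epithelia, and Abcg1, a sterol exporter (fold 21.8, 20.2 and 19.7). Dbx2 RNA rose from 0.428 and 0.703 to 2.51 and 3.45 CPM (log2 2.45, SE 0.46, adjusted p = 0.00222), Esrp1 was listed at 0 in all 4 libraries and Abcg1 did not pass the test. The Abcg1 domain spanned 18688 bp (chr17:31192714-31211401). The strongest intergenic gains spanned 44112 bp 29.1 kb from Cstad, 20404 bp 57.4 kb from Lrrn2 (chr1:134699021-134719424) and 6009 bp 22.9 kb from Myod1, the muscle master regulator. Lrrn2 RNA fell from 11.3 and 14.1 to 4.61 and 5.88 CPM (log2 −1.20, SE 0.29, adjusted p = 0.00904). Among new promoters, Ptgs1, a prostaglandin synthase, fell from 23.1 and 22.6 to 0.838 and 0.639 CPM, and Cd6 and Cyp11a1 were listed at 0 in both knockout libraries against 5.57 and 5.77, and 3.00 and 3.80 in wild-type, at least 19.3-fold and 11.6-fold lower. The strongest of the few lost promoter domains lay at Ptpn13, Rb1 and Sestd1, each of which kept another peak near a start. Rb1, the retinoblastoma gene, fell from 5.42 and 6.05 to 0.419 and 1.41 CPM (adjusted p = 0.00424) and Ptpn13, a phosphatase, from 4.57 and 6.05 to 0.419 and 2.17 (adjusted p = 0.0152), while Sestd1 did not pass the test.

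**Figure D5:**
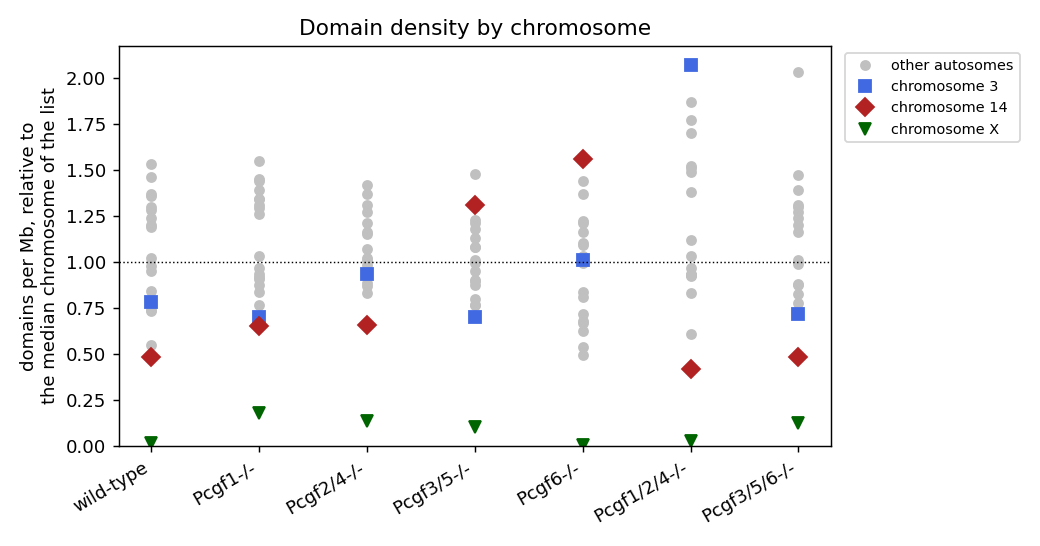
H3K27me3 domains per Mb on each chromosome relative to the median chromosome of the same list, for the 7 lists. Chromosome 14 stands at 0.483 in wild-type, 1.31 in Pcgf3/5-/- and 1.56 in Pcgf6-/-, and chromosome 3 at 0.781 in wild-type and 2.07 in Pcgf1/2/4-/-.

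Domains were spread unevenly over chromosomes in some clones. Relative to the median chromosome of the same list, chromosome 14 had a domain density of 0.483 in wild-type, 1.31 in Pcgf3/5-/- and 1.56 in Pcgf6-/-, and chromosome 3 had 0.781 in wild-type and 2.07 in Pcgf1/2/4-/-. The median log2 change of RNA on chromosome 14 was 0.25 in Pcgf3/5-/- and 0.03 in Pcgf6-/-, against 0.00 and 0.03 over all genes. On chromosome 3 it lay 0.15 above all genes in Pcgf1/2/4-/-. Whether the densities and these RNA values have a common source was not tested. Without chromosomes 3 and 14, a choice made after seeing the data, the share of wild-type domains kept was 90.0%, 98.6%, 88.6%, 67.2%, 30.6% and 79.4% in Pcgf1-/-, Pcgf2/4-/-, Pcgf3/5-/-, Pcgf6-/-, Pcgf1/2/4-/- and Pcgf3/5/6-/-, in the same order of lines as with them.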

How the data were processed

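The authors' deposited peak lists hold, per peak, a fold enrichment (a ratio over background) and −log10 p and q values in the MACS2 narrowPeak layout, called from 1 sample each. The deposited RNA table holds read counts per gene, as the authors made them. The submitters' processing notes name Bowtie 1.2.2, Picard 1.62, MACS2 2.1.1, TopHat2 2.1.1, HTSeq 0.7.2 and the build mm9, with no role for each, and the strandedness of counting is not given in the sources used here.

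Peaks at most 3 kb apart were joined. Gene starts came from 22367 protein-coding and 1273 lincRNA genes of the mm9 annotation (GENCODE M1). Counts from all 14 libraries entered 1 fit in edgeR 4.0.16 (TMM, filterByExpr, quasi-likelihood), with each knockout against wild-type, Benjamini-Hochberg adjustment over 15464 genes and a threshold of 0.05, and 14082 of these genes (91.1%) matched an annotated symbol. CPM are per library after TMM, and log2 values are edgeR's. The labels do not say that the pairs of RNA libraries are separate cultures, so p-values measure the spread between libraries, which may be technical. The interval and count steps were tested on simulated data. R 4.3.3, DESeq2 1.42.0 and Python 3.11.15 with pysam 0.24.0 were used.

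Named genes were, per line, the 3 lost and 3 new promoters and the 3 lost and 3 new intergenic domains of highest fold, and the 3 lost-promoter and 3 new-promoter genes with the largest called RNA change, a mean log2 CPM of at least 2 and no overlap between groups. Gene lists (Hox, neural, mesendoderm, signalling, germ cell, kinase inhibitors, pluripotency, imprinted, PRC1, PRC2) and markers were added whole. The members and lists were chosen with earlier results of these data known. Beside H3K27me3, peak lists of SUZ12, RING1B, H2AK119ub1 and the PCGF proteins were read in wild-type or the same lines, while lists of other lines and the authors' tables of RNA comparisons gave no value here. A few genes that the lists or rules hold are not reported here by name.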

Additional observations from a re-analysis of the deposited data

How the results depend on the processing

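Values are given in the order Pcgf1-/-, Pcgf2/4-/-, Pcgf3/5-/-, Pcgf6-/-, Pcgf1/2/4-/- and Pcgf3/5/6-/-, led by wild-type where 7 are given. The share of wild-type domains kept (%) was 86.9, 97.5, 84.5, 54.8, 12.8 and 74.3 where 50% of a domain had to be covered, 72.5, 78.1, 70.7, 51.4, 40.0 and 66.6 in lists of equal size, 91.4, 99.0, 90.9, 63.9, 20.8 and 82.1 with a −log10 q of at least 7.88, and 88.8, 96.9, 86.7, 65.2 and 28.1 in the first 5 lines with peaks joined within 1 kb. New domains (%) were 83.2, 98.5, 83.3, 68.7, 52.3 and 77.2 with 50% coverage, 38.0, 37.6, 41.2, 48.8, 58.5 and 38.3 in lists of equal size, and 69.4, 93.3, 71.3 and 60.0 in the first 4 lines and 57.3 in Pcgf3/5/6-/- with 1 kb joining. With the stricter q they were 69.5, 91.7 and 71.9 in the first 3 lines, 37.3 in Pcgf1/2/4-/- and 55.4 in Pcgf3/5/6-/-, and without chromosomes 3 and 14, a choice made after seeing the data, 67.8, 51.4 and 43.8 in Pcgf3/5-/-, Pcgf6-/- and Pcgf1/2/4-/-. The promoter share (%) was 74.2, 75.4, 74.3, 74.6, 63.2 and 83.3 in equal lists (all but Pcgf1/2/4-/-, the shortest list), 62.7, 40.3, 21.9, 39.8, 43.1, 39.4 and 61.4 with a 1 kb window, and 71.4, 44.3, 54.7 and 58.5 with the stricter q in wild-type, Pcgf3/5-/-, Pcgf6-/- and Pcgf1/2/4-/-. The median width (bp) was 2326, 2721, 1988, 1042 and 3102 in equal lists of Pcgf1-/-, Pcgf2/4-/-, Pcgf3/5-/-, Pcgf6-/- and Pcgf3/5/6-/-, 612, 656, 476, 534, 484, 450 and 820 with peaks not joined, and 960, 1011, 697, 807, 628, 496 and 1497 with 1 kb joining. The cause of these moves was not tested, apart from the shorter lists or stricter overlap that the settings impose. Pcgf1/2/4-/- kept the lowest share and Pcgf2/4-/- the highest under each of these settings.

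Genes called in RNA-seq numbered 4999, 3340, 3332, 7185, 5717 and 8241. With wild-type summed, chosen after seeing the data, they were 3521, 2261, 2164, 6126, 3856 and 7291, and with only the 2 groups fitted 1146 in Pcgf2/4-/-. Leaving out 1 library gave 2955 to 3848, 1772 to 4704, 1602 to 2112, 5576 to 5706, 2852 to 3608 and 6578 to 6812. Lost-promoter genes called were 69, 0, 28, 305, 366 and 186, and became 135, 68, 86 and 211 in equal lists of Pcgf1-/-, Pcgf2/4-/-, Pcgf3/5-/- and Pcgf1/2/4-/-, and 1 with a 1 kb window in Pcgf2/4-/-. Leaving out 1 library gave 40 to 61, 0 to 1, 14 to 20, 244 to 270, 189 to 259 and 158 to 168. New-promoter genes called were 464, 1052, 391, 332, 34 and 791, and became 186, 186, 145, 195, 61 and 335 in equal lists, and 386 with only the 2 groups in Pcgf2/4-/-. Leaving out 1 library gave 290 to 381, 597 to 1045, 215 to 274, 247 to 256, 14 to 25 and 616 to 660. The raised share of called genes moved by over 10 points in Pcgf1-/- (42.9% to 54.2% with 2 groups and 60.1% without knockout replicate 2), Pcgf2/4-/- (37.5% to 54.7% without knockout replicate 1), Pcgf3/5-/- (51.7% to 66.2% without knockout replicate 2) and Pcgf1/2/4-/- (38.9% to 51.1% with DESeq2). Over 159 single genes and these settings, 1509 re-runs kept their direction and call, 5 gained and 63 lost the call, and none turned direction.

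Same-numbered libraries did not deviate together (correlation −0.0228 to 0.0597), so the numbers were not taken as pairs. With the replicate block, genes called were 4517, 2952, 2921, 6866, 5265 and 7931, lost-promoter genes 65, 0, 27, 294, 346 and 184, and new-promoter genes 441, 949, 363, 313, 31 and 764. With 1 H3K27me3 list per line, no depth per list and no scaling to the fly chromatin, list lengths cannot be told apart from antibody or sequencing yield, and a domain missing from a list is below the caller's threshold, not shown to be free of the mark.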

Other observations

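Other gene lists differed in their number of promoter peaks between lines. Of 27 annotated imprinted genes, 9 had a promoter peak in wild-type and 16, 15, 16, 8, 9 and 10 in Pcgf1-/-, Pcgf2/4-/-, Pcgf3/5-/-, Pcgf6-/-, Pcgf1/2/4-/- and Pcgf3/5/6-/-. Of 32 genes of PRC1 subunits and partners, 6 had one in wild-type and 10, 14, 12, 7, 1 and 12 in the same order. Pcgf1/2/4-/- thus lost 5 of the 6, beside 61.9% of the 3078 wild-type promoter peaks over all genes. Of all 23640 genes, 3078 had a promoter peak in wild-type and 4656, 8506, 5004, 3258, 1331 and 4707 in the same order. Whether any of these lists moved apart from all genes was not tested. Bmi1, which encodes PCGF4, had a promoter peak in wild-type and in every knockout list except that of Pcgf1/2/4-/-. Pluripotency genes, 17 annotated, had 1 peak in wild-type and 2 to 4 in the knockouts, and PRC2 genes, 11 annotated, had 1 in every list.

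The X chromosome held 4 domains in wild-type, 110 in Pcgf1-/-, 308 in Pcgf2/4-/-, 75 in Pcgf3/5-/-, 3 in Pcgf6-/-, 4 in Pcgf1/2/4-/- and 50 in Pcgf3/5/6-/-.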
